A study of Mus musculus with 6 samples.

Results

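The genes described here are 10 mouse genes of the G1 checkpoint of the cell cycle: the Ink4 inhibitors Cdkn2a, Cdkn2b, Cdkn2c and Cdkn2d, the Cip/Kip inhibitors Cdkn1a and Cdkn1b, the D-type cyclins Ccnd1 and Ccnd2, and their kinases Cdk4 and Cdk6. They were taken by symbol from a table of 39179 genes, and all 10 were found and passed the filter on low counts. They were chosen with the difference between the groups in view, Cdkn2a and Cdkn2b for their rise, so their differences are given as a description and not as a test. RNA had been sequenced from cultures of differentiated neural progenitor cells, which were taken from the cerebral cortex of CD1 mouse embryos at E13.5. The 3 GFP libraries came from cells with stable expression of green fluorescent protein (GFP). The 3 G392E-NS libraries came from cells with stable expression of G392E neuroserpin, a variant of a neuronal protease inhibitor that polymerises in the endoplasmic reticulum and causes the dementia FENIB. The sources used here do not give the promoter of the constructs or say whether each line was 1 clone or a pool. No wild-type neuroserpin group was analysed here, which leaves GFP as the one control.

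In G1, D-type cyclins bind Cdk4 or Cdk6, and these kinases phosphorylate the retinoblastoma protein and release E2F factors, which switch on the genes of DNA replication. Ink4 proteins bind Cdk4 and Cdk6 and keep D-type cyclins off them, while the Cip/Kip proteins p21 (Cdkn1a) and p27 (Cdkn1b) act on cyclin-bound kinases and above all on Cdk2. Cdkn2a encodes 2 unrelated proteins from overlapping reading frames, p16Ink4a, an Ink4 inhibitor, and p19Arf, which stabilises p53. Neural progenitors keep the Cdkn2a locus silent through Polycomb proteins, and its expression is known to rise with passage in culture and with age.

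Total counts were 15507487 to 24835835 per library. The labels do not tell whether replicates came from separate cultures. The spread among samples on which the p-values rest may therefore not be that of independent cultures. Some markers of the labelled cell type were present, with Sox2 at 335 to 495.4 CPM (counts scaled to a common library size) and the neuronal gene Map2 at 2340 to 3087 CPM. Other neuronal genes were lower, with Dcx at 412.1 to 783.4 CPM, Rbfox3 at 16.75 to 23.19, Snap25 at 7.98 to 15.18 and Stmn2 at most 0.3011. The oligodendrocyte lineage gene Olig1 was at 1303 to 3026 CPM and the astrocyte marker Slc1a3 at 1946 to 4731 CPM. The share of each cell type was not tested. Mouse Serpini1 had 4.693 ± 0.4825 CPM with GFP and 5.716 ± 0.9238 CPM with G392E-NS (mean ± SD, n = 3), and the labels do not give the species of the introduced neuroserpin, so the construct could not be checked. Xist, the RNA of the silenced X chromosome, was at 1.412 to 1.556 CPM with GFP and 1156 to 1846 CPM with G392E-NS. This difference runs along with the groups in every library. Its part in the results below was not tested and cannot be told apart from that of the construct.

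Cdkn2a and Cdkn2b lie side by side on the minus strand of chromosome 4 in GRCm38, at chr4:89274471-89294653 and chr4:89306299-89311039. Both Cdkn2a proteins share exon 2 and differ in the first exon. The annotation gives p16Ink4a (transcript Cdkn2a-201) a first exon of 207 bases and p19Arf (transcript Cdkn2a-202) a first exon of 320 bases, which starts nearer to Cdkn2b. The counts are per gene, so they do not say how much of the Cdkn2a signal belongs to either protein. The joins to exon 2, shown because they are what tells the transcripts apart, have the last 15 bases of the first exon in lower case and the first 15 of exon 2 in capitals (GENCODE transcripts):
Cdkn2a-201, p16Ink4a: cgtaccccgattcagGTGATGATGATGGGC
Cdkn2a-202, p19Arf: ggaatcctggaccagGTGATGATGATGGGC

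Cdkn2a and Cdkn2b are related genes, so it was checked how much exact sequence they share. The longest run of bases that is identical in an annotated transcript of each gene is 23 bases, shown with no capitals because the whole run matches (stretches that match with mismatches were not examined):
shared by Cdkn2a and Cdkn2b: cgggaaggcttcctggacacgct
Among the other Ink4 pairs the longest identical runs were 12 to 16 bases, between Ccnd1 and Ccnd2 20 bases and between Cdk4 and Cdk6 20 bases.

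The promoters of the locus differ in CpG content, shown because CpG-rich promoters are the usual binding places of Polycomb proteins. RefSeq promoters (GRCm38.p6) were matched for 8 of the 10 genes, as 11 windows of the 250 bases before a start site. Ccnd1 and Ccnd2 had no entry. The windows of the locus are chr4:89294620-89294869 for p19Arf, chr4:89282193-89282442 for p16Ink4a and chr4:89311033-89311282 for Cdkn2b, all on the minus strand, with each CpG in capitals:
Cdkn2a, p19Arf promoter: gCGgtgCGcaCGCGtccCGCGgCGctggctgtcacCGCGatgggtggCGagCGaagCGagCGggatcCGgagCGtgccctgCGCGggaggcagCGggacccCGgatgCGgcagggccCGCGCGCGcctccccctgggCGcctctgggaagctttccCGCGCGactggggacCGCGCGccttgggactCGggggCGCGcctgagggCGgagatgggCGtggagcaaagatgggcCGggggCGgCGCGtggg
Cdkn2a, p16Ink4a promoter: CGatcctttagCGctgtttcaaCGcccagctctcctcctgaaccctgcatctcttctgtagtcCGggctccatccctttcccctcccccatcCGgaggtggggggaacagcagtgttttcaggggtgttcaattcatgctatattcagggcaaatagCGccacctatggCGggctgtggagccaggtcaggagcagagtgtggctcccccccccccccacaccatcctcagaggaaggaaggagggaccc
Cdkn2b promoter: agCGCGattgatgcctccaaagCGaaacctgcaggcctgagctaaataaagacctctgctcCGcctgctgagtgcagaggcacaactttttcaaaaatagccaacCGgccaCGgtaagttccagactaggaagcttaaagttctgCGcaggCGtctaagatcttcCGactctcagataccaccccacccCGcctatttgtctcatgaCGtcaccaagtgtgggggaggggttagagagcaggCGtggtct
The p19Arf window held 40 CpGs, more than 98.7% of the 32851 promoters in the table, whose median was 6. The p16Ink4a window held 7 and the Cdkn2b window 12. Windows of the other inhibitors held from 2 to 29 CpGs, with 2 and 19 in the Cdkn1a windows, 28 in Cdkn1b and 29 in the richer of the Cdkn2c windows, all fewer than the p19Arf window. The letters TTTNNCGC, an E2F-type motif searched on both strands, were found in 4.28% of all promoters. They occurred in both Cdkn2a windows, as TTTCCCGC starting 99 bases before the p19Arf start and as TTTAGCGC starting 244 bases before the p16Ink4a start, and in the Cdk6 window as TTTTACGC. None of the other 8 windows held them, which says only that these letters are not there. No window held the AP-1-type letters TGANTCA, which 6.75% of promoters hold.

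Cdkn2a was close to silent in GFP cultures and clearly detected in all G392E-NS cultures. GFP libraries had 11, 16 and 18 counts (replicates 1 to 3), or 0.6335, 0.803 and 0.7699 CPM. G392E-NS libraries had 200, 484 and 386 counts, or 8.316, 20.53 and 25.17 CPM. The lowest G392E-NS library lay far above the highest GFP library, and replicate 1 was the lowest of its group. The fitted difference was 24.1-fold, a log2 fold change (the log2 ratio of G392E-NS to GFP) of 4.59 (SE 0.45, 95% interval 3.54 to 5.63), the 36th highest of 13775 genes tested.

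Cdkn2b, which encodes p15Ink4b, an inhibitor known as a target of TGF-beta signalling, followed its neighbour. It had 12, 8 and 16 counts in GFP libraries, or 0.6911, 0.4015 and 0.6844 CPM. It had 123, 270 and 94 counts in G392E-NS libraries, or 5.114, 11.45 and 6.13 CPM. The groups did not overlap, and here replicate 2 stood above the other G392E-NS libraries. The fitted difference was 12.7-fold (log2 difference 3.66, SE 0.40, 95% interval 2.74 to 4.59).

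The balance between the neighbours was not constant within the G392E-NS group. Of the counts of both genes together, Cdkn2a made up 61.9% in G392E-NS replicate 1 (95% Wilson interval 56.5% to 67.0%), 64.2% in replicate 2 (60.7% to 67.5%) and 80.4% in replicate 3 (76.6% to 83.7%). Replicate 3 thus differed from the others of its group by more than counting error. In GFP libraries the shares were 47.8%, 66.7% and 52.9%, from 23 to 34 counts each, and intervals as wide as 29.2% to 67.0% did not separate them from each other or from G392E-NS replicates 1 and 2. These intervals cover counting error only.

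The remaining Ink4 genes differed far less between the groups than this pair. Cdkn2c, which encodes p18Ink4c, had 14.34, 14.86 and 12.62 CPM with GFP and 15.47, 21.25 and 18.85 CPM with G392E-NS. Its groups did not overlap, though GFP replicate 2 and G392E-NS replicate 1 were close, and its log2 fold change was 0.41 (SE 0.15, 95% interval 0.07 to 0.75). Cdkn2d, which encodes p19Ink4d, an inhibitor known for keeping neurons out of the cycle, had 13.77, 13.85 and 13.77 CPM with GFP and 12.06, 12.05 and 12 CPM with G392E-NS. Its groups did not overlap either, and the log2 fold change was -0.20 (SE 0.11, 95% interval -0.46 to 0.07). The spread of Cdkn2d between replicates, 0.346% and 0.257% of the mean, was smaller than the 5.99% and 6.29% that counting error alone would give, so its replicates lay closer together than their depth can resolve.

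**Figure D1:**
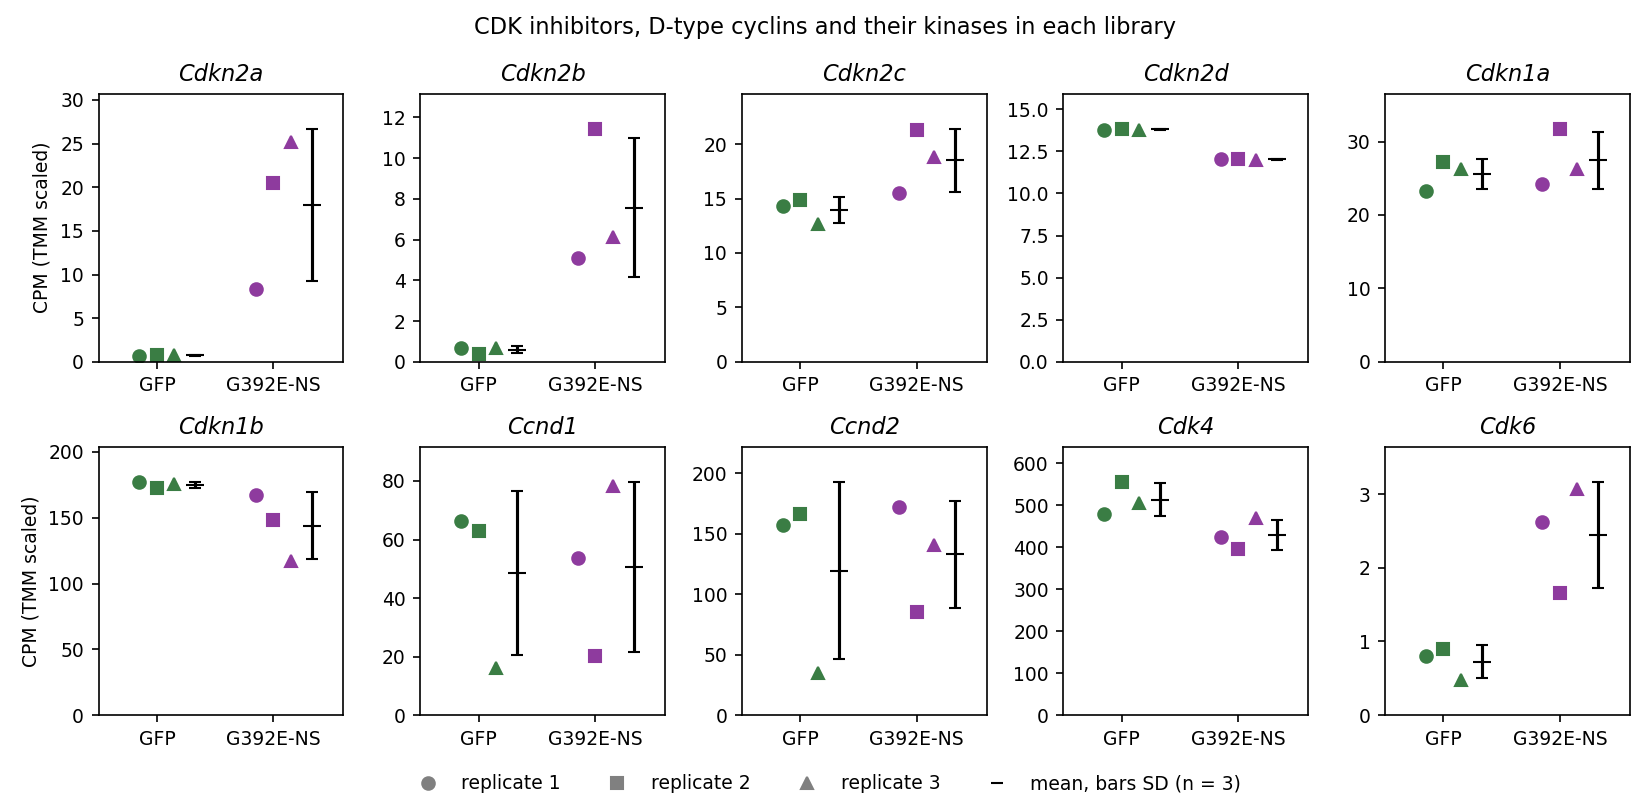
Level of each of the 10 genes in CPM (linear axis from 0, a separate scale per gene) in the 3 GFP and 3 G392E-NS libraries, with marker shape for the replicate number and black bars for mean ± SD. Cdkn2a, Cdkn2b and Cdk6 separate the groups by the widest margin relative to their level, whereas Ccnd1 and Ccnd2 have a low library in each group.

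Compared per kilobase of exon, the scale on which genes can be set side by side, the make-up of the Ink4 family differed between the groups. In GFP libraries Cdkn2d (8.77 ± 0.0303 CPM per kb) and Cdkn2c (5.19 ± 0.436) carried nearly all of the Ink4 level, with Cdkn2a at 0.628 ± 0.0766 and Cdkn2b at 0.426 ± 0.119 (mean ± SD, n = 3). In G392E-NS libraries Cdkn2a, at 15.4 ± 7.43 CPM per kb, had the highest mean of the family, and Cdkn2b reached 5.44 ± 2.45. Cdkn2a and Cdkn2b together made up 6.36% to 7.87% of the summed Ink4 level with GFP and 44.5% to 63.9% with G392E-NS. The sum itself was 15.1, 15.3 and 14.6 CPM per kb with GFP and 24.2, 41.3 and 40.5 CPM per kb with G392E-NS. Set against their targets, the Ink4 genes summed to 8.94 to 10.2 per 100 of Cdk4 plus Cdk6 per length with GFP and to 18.5 to 33.9 with G392E-NS. These are RNA ratios, and the groups did not overlap in either of these sums. The Cdkn2a part of the sums holds RNA of p19Arf, which is not an Ink4 inhibitor, in a share that the counts do not give. The exon length used for Cdkn2a, 1172 bases, is the union of both transcripts.

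**Figure D2:**
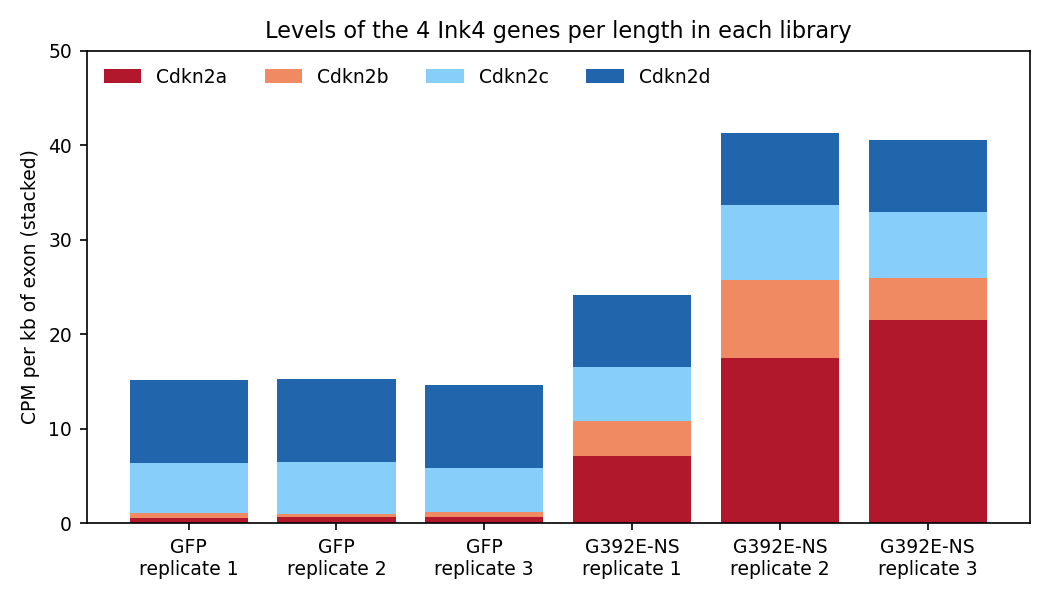
Stacked levels of Cdkn2a, Cdkn2b, Cdkn2c and Cdkn2d in CPM per kb of exon (vertical axis) in each library. The Cdkn2a segment holds RNA of both p16Ink4a and p19Arf. The Cdkn2c and Cdkn2d segments are of similar height throughout, and the Cdkn2a and Cdkn2b segments take 44.5% to 63.9% of the bar in G392E-NS libraries against 6.36% to 7.87% in GFP libraries.

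The Cip/Kip inhibitors differed little between the groups, and neither passed the test. Cdkn1a, the p53 target that encodes p21, had 23.33, 27.15 and 26.26 CPM with GFP and 24.2, 31.77 and 26.28 CPM with G392E-NS, and the groups overlapped. Its fitted log2 difference was 0.10 (SE 0.13, 95% interval -0.20 to 0.40), and its direction reversed to -0.02 without G392E-NS replicate 2 and to -0.09 with length and GC trends removed. Cdkn1b, which encodes p27, had 177.1, 172.3 and 175.3 CPM with GFP and 166.9, 148.3 and 116.8 CPM with G392E-NS. Every G392E-NS library lay below the GFP libraries, with replicate 3 the lowest, and the log2 fold change was -0.28 (SE 0.13, 95% interval -0.58 to 0.02). Per length Cdkn1b was the most abundant inhibitor in both groups, at 38.4 ± 0.535 CPM per kb with GFP and 31.6 ± 5.56 with G392E-NS.

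The D-type cyclins varied more between replicates than between groups. Ccnd1, the cyclin that answers growth factor signals, had 66.46, 62.83 and 16.25 CPM with GFP and 53.55, 20.32 and 78.19 CPM with G392E-NS. Ccnd2, the D-type cyclin typical of cortical progenitors, had 157.2, 166.5 and 34.99 CPM with GFP and 172.5, 85.59 and 140.8 CPM with G392E-NS. GFP replicate 3 and G392E-NS replicate 2 were the lowest of their groups for both cyclins. The log2 fold changes were 0.06 (SE 0.57, 95% interval -1.25 to 1.37) and 0.15 (SE 0.51, 95% interval -1.01 to 1.32), so that a difference of 2-fold in either direction lay within both intervals. Without GFP replicate 3 they were -0.36 and -0.28, Ccnd1 was -0.39 without G392E-NS replicate 3, and Ccnd2 stood at -0.09 without G392E-NS replicate 1. The third D-type cyclin, Ccnd3, had no such low library, with 40.21 to 43.91 CPM with GFP and 41.23 to 50.23 CPM with G392E-NS.

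The libraries low in Ccnd1 and Ccnd2 were also those with the least RNA of dividing cells. The summed level of 12 dividing-cell markers, among them Mki67, Top2a and Cdk1, was 51.7, 77.0 and 7.7 CPM with GFP and 17.1, 14.2 and 29.1 CPM with G392E-NS. GFP replicate 3 and G392E-NS replicate 2 had the lowest sum of their groups. In the G392E-NS group the match was loose, since replicate 1 had a sum close to that of replicate 2 but the highest Ccnd2 of all libraries (172.5 CPM). Of the 11 markers tested, none passed the test in either direction by edgeR, by DESeq2 or by limma-voom, and none at an unadjusted p under 0.05, although all 11 had a fold change below 0 (median -1.15). The nearest to the threshold was Plk1, a mitotic kinase (log2 difference -1.39, SE 0.62, adjusted p = 0.232, edgeR quasi-likelihood test). In such cultures fewer dividing cells and less RNA per cell cannot be told apart, and the part of dividing cells in the cyclin levels was not tested.

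**Figure D3:**
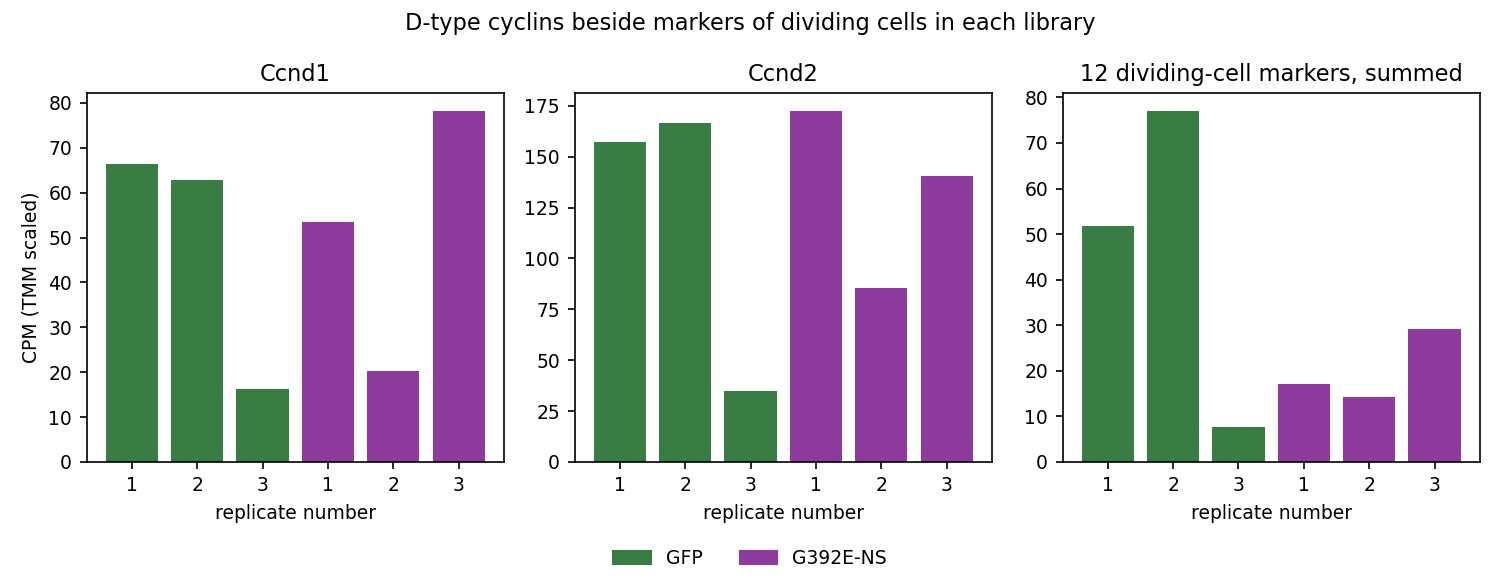
Ccnd1 (left), Ccnd2 (middle) and the sum of 12 dividing-cell markers (right) in CPM, as bars from 0 for replicates 1 to 3 of GFP and of G392E-NS. GFP replicate 3 and G392E-NS replicate 2 have the lowest bar of their group in all 3 panels. G392E-NS replicate 1 has a marker sum close to that of replicate 2 but the highest Ccnd2 bar.

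Of the kinases, Cdk4 was abundant and Cdk6 scarce in both groups. Cdk4 had 479.6, 555.9 and 504.7 CPM with GFP and 423.6, 395.6 and 468.4 CPM with G392E-NS. Every G392E-NS library lay below every GFP library, the closest being GFP replicate 1 and G392E-NS replicate 3, and the log2 fold change was -0.26 (SE 0.11, 95% interval -0.52 to 0.00). Cdk6 had 14, 18 and 11 counts in GFP, or 0.8063, 0.9034 and 0.4705 CPM, and 63, 39 and 47 counts in G392E-NS libraries, or 2.619, 1.654 and 3.065 CPM. The groups did not overlap, and the fitted difference was 3.36-fold (log2 difference 1.75, SE 0.35, 95% interval 0.94 to 2.55). Per length Cdk4 exceeded Cdk6 by 2560 to 4620 times with GFP and by 658 to 1030 times with G392E-NS, and Cdk6 made up 0.0216% to 0.039% of their sum with GFP against 0.097% to 0.152% with G392E-NS.

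Some of these counts may hold reads of a gene on the opposite strand, because the sources used here do not state the strand setting. Cdk4 shares 641 exon bases with Tspan31 and Ccnd1 shares 1100 with LTO1. Ccnd2, Cdk6 and Cdkn1a share 273 to 372 exon bases with unnamed or antisense transcripts. Cdkn2a, Cdkn2b, Cdkn2c, Cdkn2d and Cdkn1b overlap no other annotated gene.

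In the fit across all genes, 3 of the 10 passed an adjusted p threshold of 0.05 in the higher direction, namely Cdkn2a, Cdkn2b and Cdk6, against 4.79% of the 13775 genes tested (6.15% in either direction). None passed in the lower direction by edgeR, DESeq2 or limma-voom, against 1.36% of all genes called lower at the same adjusted threshold by edgeR. At an unadjusted p under 0.05 there was 1 in the lower direction. Since the genes were chosen on this contrast, nothing is read from these counts. Groups did not overlap for 7 of the 10, with 4 higher and 3 lower in G392E-NS libraries, against 28.6% of all genes tested. The median log2 fold change of the 4 Ink4 genes was 2.04, of the 4 inhibitors other than Cdkn2a and Cdkn2b -0.05, and of all genes tested 0.00. Over 16 alternative settings, left-out libraries included, Cdkn2a and Cdkn2b kept their calls in each. Cdk6 lost its call in 6, namely with GFP replicate 1, 2 or 3 or G392E-NS replicate 1 or 3 left out, where its log2 fold change was 1.49 to 1.94, and with the replicate number as a block (1.73).

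**Figure D4:**
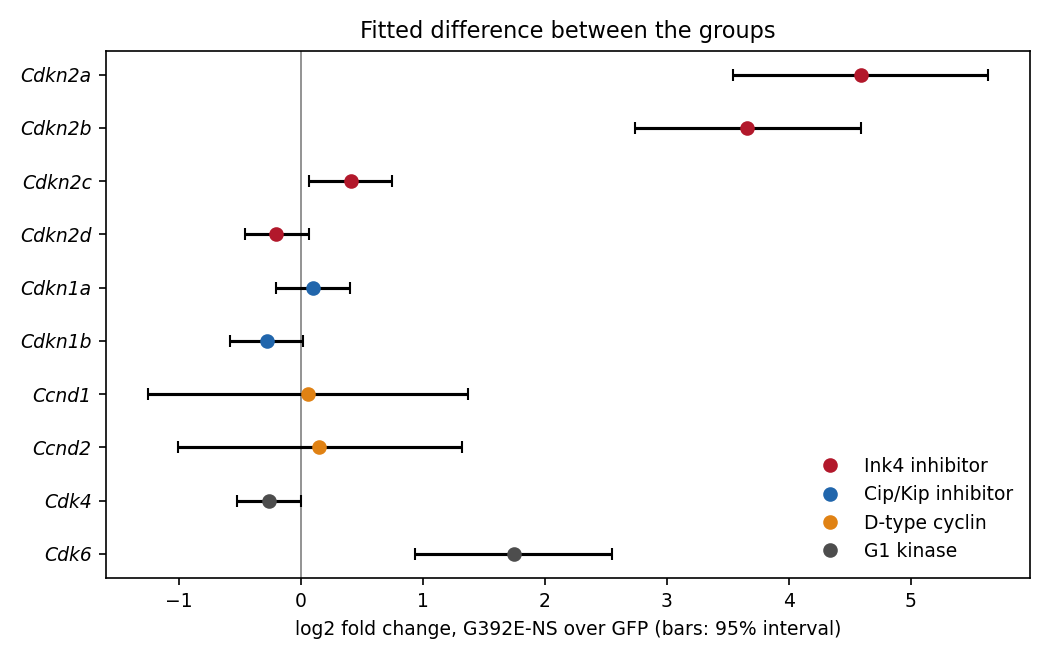
Log2 fold change of G392E-NS over GFP (horizontal axis) for each gene, coloured by role, with 95% intervals from the edgeR fit. Cdkn2a at 4.59 and Cdkn2b at 3.66 lie far to the right, Cdk6 at 1.75, and the other 7 between -0.28 and 0.41, with wide intervals for Ccnd1 and Ccnd2.

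In order of level per length, Cdkn2a moved past most of the other genes. In GFP libraries the order of means was Cdk4, Cdkn1b, Ccnd2, Ccnd1, Cdkn2d, Cdkn1a, Cdkn2c, Cdkn2a, Cdkn2b and Cdk6. In G392E-NS libraries it was Cdk4, Cdkn1b, Cdkn2a, Ccnd2, Ccnd1, Cdkn1a, Cdkn2d, Cdkn2c, Cdkn2b and Cdk6. Cdkn2a was thus the eighth with GFP and the third with G392E-NS, but there its range overlapped that of Ccnd2, the next in order. Each neighbouring pair from Cdkn2a down to Cdkn2b in the G392E-NS order overlapped in range, whereas in GFP libraries Ccnd2 with Ccnd1 and Ccnd1 with Cdkn2d were the pairs that did.

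No neighbouring gene passed the test alongside Cdkn2a and Cdkn2b. Of 55 genes of the count table within 1 Mb of the Cdkn2a-Cdkn2b span, 39 had no counts in any library, interferon genes among them, and 7 passed the filter on low counts. None of the 7 was called in either direction by edgeR, DESeq2 or limma-voom, and none had an unadjusted p under 0.05. Mtap, which salvages methionine and is the nearest of the 7, 93.4 kb away, had 44.58, 43.91 and 66.6 CPM with GFP and 64.36, 66.34 and 57.91 CPM with G392E-NS. Its groups overlapped (log2 difference 0.28, SE 0.17, 95% interval -0.10 to 0.66, adjusted p = 0.36, edgeR quasi-likelihood test). Dmrta1, a transcription factor gene 368 kb to the other side, showed a log2 difference of 0.43 (SE 0.43, 95% interval -0.57 to 1.42, adjusted p = 0.599, edgeR), at 1.338 ± 0.6633 and 1.794 ± 0.7816 CPM. Focad (0.23), Hacd4 (-0.11), Mrpl48-ps (0.05), Klhl9 (-0.09) and Zfp352 (-0.38) showed log2 differences with adjusted p of 0.265 to 0.911 (edgeR), and those of Hacd4, Mrpl48-ps and Klhl9 changed sign under some settings.

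**Figure D5:**
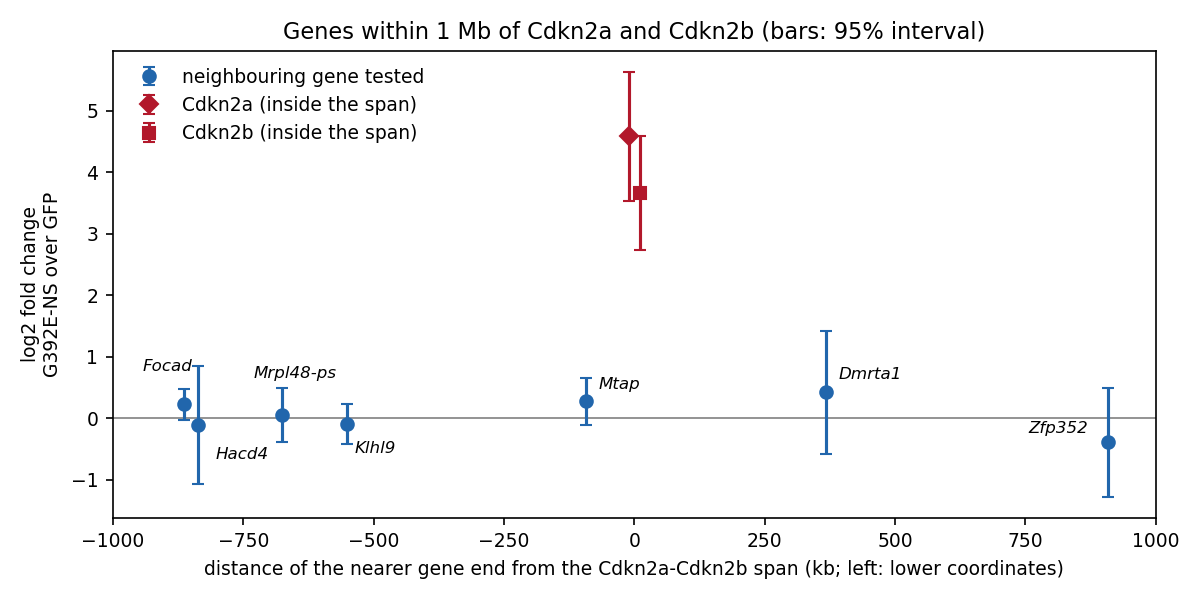
Log2 fold change of G392E-NS over GFP (vertical axis, bars 95% interval) of the 7 neighbouring genes tested against their distance in kb from the Cdkn2a-Cdkn2b span, with Cdkn2a and Cdkn2b, both inside the span, drawn side by side at the centre. The neighbours lie between -0.38 and 0.43, while Cdkn2a and Cdkn2b lie at 4.59 and 3.66.

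Of 118 other genes of the pathway tested, taken from 7 lists, 4 fell and none rose by edgeR (6 had an unadjusted p under 0.05 in the higher direction, 2 were called higher by DESeq2 and 0 by limma-voom). The share called lower was 3.39%, against 1.36% of all genes, and the median log2 fold change was -0.07. Of 29 genes for Polycomb proteins and other regulators of the Cdkn2a locus, 2 fell. Kmt2a, a Trithorax histone methyltransferase that opposes Polycomb, fell from 368.4 ± 21.41 to 241.1 ± 17.3 CPM (log2 difference -0.61, SE 0.10, adjusted p = 0.0139, edgeR). Tbx2, a T-box factor known to repress Cdkn2a and Cdkn1a, fell from 3.555 ± 0.4678 to 1.612 ± 0.3919 CPM (log2 difference -1.15, SE 0.26, adjusted p = 0.0401, edgeR). The Polycomb genes Bmi1 and Ezh2, named after their values were seen, did not pass, with log2 fold changes of -0.21 (SE 0.12, adjusted p = 0.324, edgeR) and -0.39 (SE 0.11, adjusted p = 0.0759). The list had a median of -0.18. Of its 29 genes, 13 were lower in every G392E-NS library than in every GFP library, against 12.9% of all genes. A log2 fold change above 0 was seen for 7 of the 29, among them the Polycomb genes Ring1 (0.23) and Cbx7 (0.10). The list holds repressors of the locus together with genes that oppose Polycomb and was not split by direction, so nothing is read from these counts.

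Of 14 other cyclins, kinases and phosphatases of G1 and S phase, 1 fell: Ccng2, an atypical cyclin linked to cell cycle arrest (78.21 ± 5.861 to 58.63 ± 4.696 CPM, log2 difference -0.42, SE 0.10, adjusted p = 0.0496, edgeR). Of 16 genes that set the stability of p27 and D-type cyclins, 1 fell: Foxo4, a forkhead factor that drives Cdkn1b (112 ± 1.098 to 78.77 ± 11.02 CPM, log2 difference -0.51, SE 0.11, adjusted p = 0.0367, edgeR). Each of these 4 calls was lost with some single library left out, which also leaves fewer libraries to test. Over all genes the share called lower was 0.324% without GFP replicate 1 and 0.359% without GFP replicate 2, against 1.36% with all libraries. Without GFP replicate 1 or GFP replicate 2 none of the 118 genes was called lower, 1 was without GFP replicate 3 or G392E-NS replicate 2, 2 with G392E-NS replicate 3 left out and 5 with G392E-NS replicate 1 left out. In the higher direction, 2 genes were called when G392E-NS replicate 1 was left out and 1 when replicate 2 was. Ccng2 lost its call in 10 of 16 settings, Tbx2 in 8, Foxo4 in 6 and Kmt2a in 3. Their log2 fold changes stayed below 0 in every setting, at -0.50 to -0.36, -1.42 to -0.97, -0.70 to -0.41 and -0.67 to -0.55.

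Downstream of the kinases no single gene of the lists passed the test, and the lists as such were not tested. In simulated counts 36% of 1.5-fold changes were recovered, so a gene that did not pass, here or in other lists, is not shown to be unchanged. Of 12 pocket proteins and E2F factors tested, none passed by edgeR, DESeq2 or limma-voom, and none had an unadjusted p under 0.05. Their nearest member was Rbl1, which encodes the pocket protein p107 (log2 difference 0.29, SE 0.16, adjusted p = 0.339, edgeR). Of 21 replication genes driven by E2F, none passed by any of the 3 tools, with 1 in each direction at an unadjusted p under 0.05. The nearest was Tyms, the thymidylate synthase gene (log2 difference -0.47, SE 0.15, adjusted p = 0.108, edgeR), and the list had a median of -0.17.

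The p53 arm, which p19Arf feeds, showed no call by edgeR among 20 genes. At an unadjusted p under 0.05 there were 3 higher and 2 lower, DESeq2 called 2 higher and 1 lower, and limma-voom called none. Sesn1, a p53 target that restrains mTORC1, was the nearest (68.45 ± 2.26 to 97.99 ± 18.54 CPM, log2 difference 0.52, SE 0.14, adjusted p = 0.0706, edgeR) and passed without G392E-NS replicate 1 (adjusted p = 0.0098, edgeR), where its log2 fold change was 0.65. Its adjusted p passed in 3 of 16 settings. Of 14 senescence-associated genes, 6 were tested and none passed by edgeR, DESeq2 or limma-voom, with 2 higher at an unadjusted p under 0.05. These 2 were Igfbp5 and Hmgb2, the latter named after its values were seen (11.58 ± 3.194 to 17.97 ± 2.106 CPM, log2 difference 0.64). The list was not split by the direction each gene takes in senescence, so nothing is read from the count of higher genes. Il6, Cxcl1 and Mmp3, secreted factors that rise in many senescent cells, had no counts in any library. Igfbp5, a growth factor binding protein, was the nearest to the threshold, with 41.53, 36.79 and 45.6 CPM with GFP and 69.19, 566.3 and 64.43 CPM with G392E-NS, its log2 difference of 2.50 (SE 0.80, adjusted p = 0.112, edgeR) resting on G392E-NS replicate 2, without which it was 0.70 (adjusted p = 0.0222, edgeR).

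Some single markers of other cell types passed the test, and the marker lists as such were not tested. Of all genes tested, 4.79% were called higher and 1.36% lower. The summed level of 8 astrocyte markers was 3260 to 4680 CPM with GFP and 7450 to 12400 CPM with G392E-NS, highest in G392E-NS replicate 2. Of these 8 markers, Slc1a2, Aldoc and Aldh1l1 rose, by 1.32 (SE 0.22, adjusted p = 0.0144), 1.99 (SE 0.36, adjusted p = 0.0185) and 1.11 (SE 0.23, adjusted p = 0.0302) on the log2 scale (edgeR). Each lost its call with some library left out, Aldh1l1 without any 1 GFP library or G392E-NS replicate 3, Aldoc without GFP replicate 1 or 2, and Slc1a2 without GFP replicate 2 or 3. Of 8 oligodendrocyte lineage markers, Pdgfra and Mog rose, by 1.12 and 2.25 (adjusted p = 0.0435 and 0.0295, edgeR), and their summed levels overlapped between the groups (3220 to 3900 and 2760 to 5050 CPM). Of 8 progenitor markers, Nes, the intermediate filament of neural stem cells, fell (log2 difference -0.77, SE 0.18, adjusted p = 0.048, edgeR). The progenitor list did not follow Nes: 4 of its 8 genes had a log2 fold change above 0, and the median was -0.04. Its summed level overlapped between the groups (4160 to 4780 CPM with GFP and 3920 to 4960 CPM with G392E-NS). Of 7 neuronal markers tested none passed by edgeR. Pdgfra lost its call without any 1 GFP library or G392E-NS replicate 2, Mog likewise, and Nes without any 1 library but G392E-NS replicate 1. Syt1, the neuronal marker nearest to the threshold, showed a log2 difference of 0.88 (SE 0.23, adjusted p = 0.064, edgeR) and passed without GFP replicate 3 (1.17, adjusted p = 0.0233); DESeq2 called 1 neuronal marker and limma-voom 0, with 2 at an unadjusted p under 0.05.

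Microglial markers summed to at most 0.351 CPM and endothelial markers to at most 1.31 CPM in any library, with Csf1r, C1qa, C1qb, Cdh5 and Cldn5 at 0. Of 8 mesenchymal markers, Dcn and Lum were at 0, Col1a1, Col1a2 and Col3a1 were at most 0.2121 CPM, and Twist1 and Prrx1 were the 2 tested. Prrx1 had 26.9 to 38.54 CPM with GFP and 8.217 to 19.89 CPM with G392E-NS. Prrx1 did not pass by edgeR (log2 difference -1.17, SE 0.29, adjusted p = 0.0537), while DESeq2 called 1 mesenchymal marker lower. Twist1, which had no counts in any GFP library, rose. The 8 markers summed to 27 to 38.8 CPM with GFP and 11.7 to 23.6 CPM with G392E-NS. The part of astrocytes and of other cell types in the rise of Cdkn2a and Cdkn2b was not tested.

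The genes nearest in pattern over the 6 libraries were listed for Cdkn2a and for Cdkn2b. Likeness was measured as the root mean square difference of log2(CPM + 0.1), centred on each gene's mean. It was not scaled, so it follows the size of the group difference, on which the pair was chosen, as well as the order of libraries. That the lists differ is therefore not read as a result. Nearest to Cdkn2a were Twist1 (0.28), a mesenchymal transcription factor gene, Thy1 (0.34), which encodes a surface glycoprotein of neurons and fibroblasts, Scarf2 (0.42), Fndc3c1 (0.50) and Xlr3a (0.52). Twist1, Fndc3c1 and Xlr3a had no counts in GFP libraries, so their distance depends on the added 0.1 CPM. Twist1 had 1.414, 1.909 and 3.261 CPM in G392E-NS libraries, in the same order of libraries as Cdkn2a. Thy1 was at 0.7528 to 1.209 CPM in GFP and at 9.895, 23.29 and 20.93 CPM in G392E-NS replicates 1 to 3. Xlr3a has near-identical copies, so its reads may be split. Fndc3c1 and Xlr3a lie on the X chromosome, and the part of the Xist difference in their levels was not tested.

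Nearest to Cdkn2b were Clu (0.27), which encodes the secreted chaperone clusterin, Mgll (0.33), which encodes monoacylglycerol lipase, Gm26588 (0.33), an antisense transcript that overlaps Mgll and whose reads cannot be told from it without strand, Rassf4 (0.33) and Tagln3 (0.33). Clu had 39.22, 21.78 and 45.73 CPM with GFP and 192.5, 408 and 227.3 CPM with G392E-NS, with its highest library in G392E-NS replicate 2, as for Cdkn2b. Cdkn2b was number 18 in the order for Cdkn2a (0.67), and Cdkn2a was number 104 in the order for Cdkn2b. The fitted differences of 24.1-fold for Cdkn2a and 12.7-fold for Cdkn2b enter this distance, so the ranks do not compare the order of libraries alone.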

How the data were processed

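RNA from 3 GFP and 3 G392E-NS samples was sequenced, and the deposited table holds raw gene counts per Ensembl gene and library, whole numbers that are not normalised, per the labels and the values themselves. Tools listed in the submitters' processing notes, without roles, are DESeq2 1.4.5, HTSeq 0.6.1, TopHat2 2.0.12 and R 3.2.2, with the GRCm38 build. The sources used here do not give the annotation release, the read length or the strand setting. Symbols, positions and exon lengths were taken from GENCODE release M21 (GRCm38), which matched 37693 of 39179 genes.

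Genes were tested with edgeR 4.0.16 in R 4.3.3 (filterByExpr, TMM scaling, quasi-likelihood F test, no covariate), which kept 13775 genes holding 99.9% of counts. Benjamini-Hochberg adjustment ran over every gene tested. CPM are scaled by TMM factors, CPM per kb divides them by the union of annotated exons, and a log2 fold change or difference is that of G392E-NS minus GFP. Replicates of a group differed by a chi-square of 8.02 to 56.4 per degree of freedom, so none was a duplicate. The scripts were tested on simulated counts, where 36% of 1.5-fold, 78% of 2-fold and 96% of 4-fold changes were recovered, for genes above 1 CPM.

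The 10 genes and the lists were chosen with earlier results of these data known. Named are the 10 genes, tested genes within 1 Mb of the locus, up to 4 called genes per list and direction or else the nearest, 5 most alike genes, Xist and Serpini1. Genes outside this rule, such as Ccnd3, are named for comparison after their values were seen. The alternatives tried were DESeq2 1.42.0, limma-voom (limma 3.58.1), scaling by RLE, upper quartile or total count, dropping the low-count filter or asking for at least 1 CPM in 3 libraries, a block for the replicate number, thinned counts, removal of length and GC trends, summing Cdkn2a with Cdkn2b, and each library left out in turn.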

Additional observations from a re-analysis of the deposited data

How the results depend on the processing

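Cdkn2a and Cdkn2b kept direction and call in every setting run, with log2 fold changes of 4.25 to 4.92 and 3.23 to 3.86, and summed to 1 feature they had 4.25. The count of the 10 genes called higher was 2 or 3 throughout, and of those called lower 0. Signs reversed, with no call, within left-out-library ranges up to 0.45 for Ccnd1, 0.47 for Ccnd2 and 0.17 for Cdkn1a and down to -0.41 for Hacd4 and -0.37 for Kdr, for Ccnd1 (-0.05 with length and GC trends removed, -0.36 without GFP replicate 3, -0.39 without G392E-NS replicate 3), Ccnd2 (-0.28 without GFP replicate 3, -0.09 without G392E-NS replicate 1), Cdkn1a (-0.09 with length and GC trends removed, -0.02 without G392E-NS replicate 2), Hacd4 (0.19 without GFP replicate 2, 0.09 without G392E-NS replicate 2), Kdr (0.04 without GFP replicate 1, 0.19 without G392E-NS replicate 3), Klhl9 (0.03 without G392E-NS replicate 3) and Mrpl48-ps (-0.01 with total counts, -0.07 with length and GC trends removed). Of all genes tested, 4.79% (660) were higher and 1.36% (187) lower. These were 1205 and 374 with no low-count filter, which tests more genes, 1103 and 354 by DESeq2, which also tested more, and 217 (1.58%) and 50 (0.363%) with the replicate block. With length and GC trends removed, 528 (3.83%) were lower and 54.6% of calls were higher, against 77.9%, and the median of all genes moved to -0.10. Leaving out 1 library gave 1.38% to 7.04% higher and 0.324% to 2.81% lower. Of the pathway genes, 4 were higher with no low-count filter and 2 by DESeq2. The lower ones numbered 0 with the replicate block, 2 with thinned counts and 7 with length and GC trends removed. Leaving out 1 library gave 0 to 2 higher and 0 to 5 lower. The causes were not tested unless stated. The replicate numbers gave no sign of pairing: deviations of same-numbered libraries had correlations of 0.027, -0.362 and -0.247, and not every sample correlated best with its own number. Deviations were taken from the mean of each small group, which ties them to each other, so pairing is not excluded. Depth limits Cdkn2a, Cdkn2b and Cdk6 in GFP libraries, at 8 to 18 counts each.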

Other observations

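Hmga2, which encodes a chromatin protein that represses the Cdkn2a locus in fetal neural stem cells, varied between libraries as the D-type cyclins did. It had 8.812, 10.09 and 1.711 CPM in GFP and 3.95, 1.527 and 3.195 CPM in G392E-NS libraries, lowest in GFP replicate 3 and in G392E-NS replicate 2. Its fitted log2 difference was -1.24 (SE 0.61, adjusted p = 0.276, edgeR). Hmga2 was named after its values were seen, and its part in any other result was not tested.

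G392E-NS replicate 2 also stood apart for Gfap, an astrocyte filament gene, at 26.17 CPM against 2.994 and 2.152 CPM in the other G392E-NS libraries and at most 0.6416 CPM in GFP libraries. Cdkn2b was highest in that library, and Cdkn2a was not.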
